A study of Mus musculus with 12 samples.

Results

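The 37 genes described here encode subunits of the constitutive proteasome of the mouse and proteins that assemble or activate it. They were chosen by name: the 14 subunits of the 20S core (Psma1 to Psma7 and Psmb1 to Psmb7), the 6 ATPases of the 19S cap (Psmc1 to Psmc6), 14 genes of the 19S cap that are no ATPases (Psmd1 to Psmd14), and a group of 3 made of the activators Psme3 and Psme4 and the assembly factor Pomp. Among Psmd1 to Psmd14, the genes Psmd5, Psmd9 and Psmd10 encode chaperones of 19S assembly. The 19S subunits Adrm1 and Sem1 were not members. The interferon-inducible subunits Psmb8, Psmb9 and Psmb10 were not members and served only as counterparts of the catalytic subunits. The annotation used for the read counts holds 55536 genes, and all 37 members were among the 17919 genes with enough reads to be tested. The members lie on 15 chromosomes, with 8 of them on chromosome 11 and Psmd10 alone on the X chromosome.

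The libraries came from cultured oligodendrocyte progenitor cells (OPCs), the cells that give rise to the myelinating oligodendrocytes of the brain. Brains of several mouse pups at postnatal days 4 to 6 were pooled, OPCs were isolated by sorting for a Sox10-GFP reporter or with magnetic beads against CD140a, and cells were kept in medium with PDGFaa and bFGF. Ctr cultures were untreated, Dexa cultures had 1 µM of the synthetic glucocorticoid dexamethasone in the medium for 48 h, and IFNg cultures had IFN-gamma at 100 ng/ml over the same time, with 4 replicates of each from different litters. The labels name all cells as Sox10GFP+ OPCs, do not say which libraries came from beads, and give EAE as the mouse model of all 12 libraries, although the cells came from pups.

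The proteasome is the large protease that degrades proteins tagged with ubiquitin. Its 20S core is a barrel of stacked rings, in which the outer alpha rings gate the entrance and the inner beta rings hold the active sites, which are carried by Psmb6 (caspase-like), Psmb7 (trypsin-like) and Psmb5 (chymotrypsin-like). The 19S cap binds ubiquitin chains, removes them and threads the substrate into the core with its ring of ATPases. In cells exposed to IFN-gamma the catalytic subunits of newly made cores can be replaced by Psmb9, Psmb10 and Psmb8, which gives the immunoproteasome, a form known for producing peptides for MHC class I.

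Complete libraries held 19209063 to 52074652 reads in genes. The deposited table of Dexa replicate 3 listed only 33.7% of the transcripts and gave whole sums for 17 of the 37 members, so the comparisons used the other 11 libraries and 3 pairs for Dexa. All 10 OPC marker genes passed the filter on low counts, with a summed level of 5782 to 13670 CPM (read counts scaled to the TMM-adjusted size of each library) in Ctr and 4072 to 9422 CPM in IFNg. Of 10 microglia markers, 2 passed and the summed level of the list stayed between 0.462 and 1.73 CPM in the 11 libraries. Astrocyte markers summed to 570 to 1525 CPM in Ctr and to 1062 to 1589 CPM in IFNg. In these bulk cultures, a change in the share of a cell type and a change in RNA per cell cannot be told apart.

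In untreated cultures, levels of the members were compared between genes as TPM, a unit that corrects for transcript length and library depth. The 20S genes had a median of 73.0 TPM, the 19S ATPases 58.9 TPM and the other 19S genes 43.2 TPM. Psmb6 had the highest level at 174 ± 15.5 TPM (mean ± SD, n = 4 Ctr libraries), followed by Psmb3, a beta ring subunit without an active site, at 107 ± 10.8 TPM and Psmb4, another such subunit, at 106 ± 13.1 TPM. The lowest level was that of Psmd10, or gankyrin, a chaperone of 19S assembly, at 6.47 ± 0.426 TPM. Levels were closest within the ATPase ring, from 33.3 TPM for Psmc2 to 91.9 TPM for Psmc3, a ratio of 2.76. Within the 20S core the highest level was 5 times the lowest, which was that of Psma2 at 34.8 ± 2.77 TPM. Among the 19S genes that are no ATPases the ratio was 14.7, between Psmd2, the scaffold that docks ubiquitin carriers, at 95.4 ± 11.0 TPM and Psmd10.

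**Figure D1:**
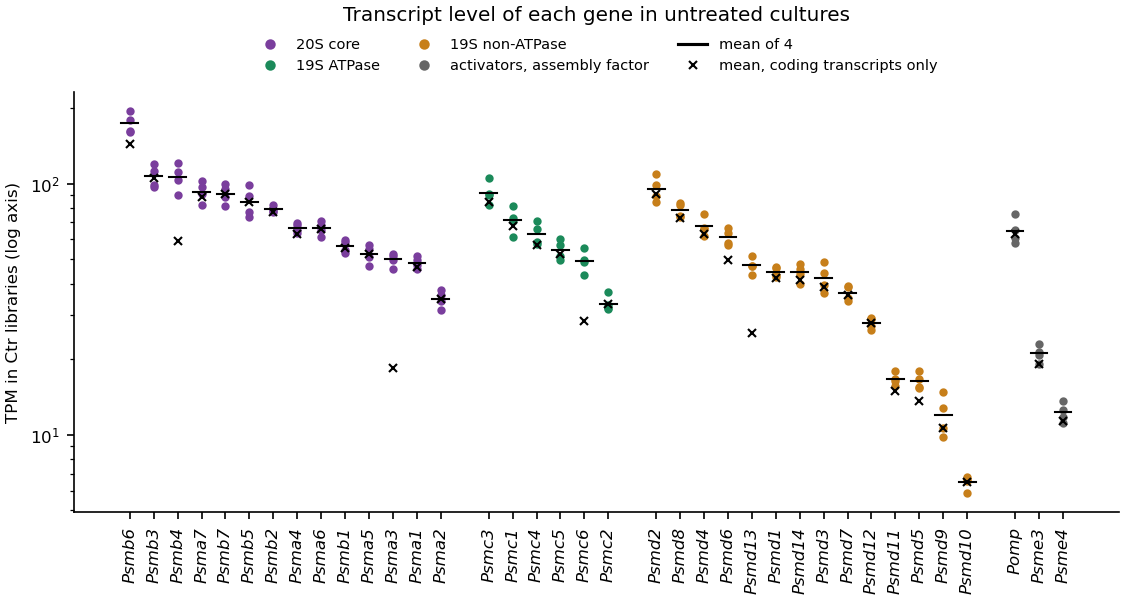
TPM of the 37 genes in the 4 Ctr libraries (points, log axis), grouped by part of the proteasome, with the mean (bar) and the mean over protein-coding transcripts only (cross). Psmb6 lies above all others and Psmd10 below, and the crosses of Psma3, Psmb4, Psmc6 and Psmd13 fall well under their bars.

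Most neighbours in this order did not differ beyond their spread. Of the 36 neighbouring pairs, 14 kept the same order in each of the 4 Ctr libraries and 6 had ranges that did not overlap, among them Psmb6 above Psmb3 and Psmd9 above Psmd10. The 19S assembly chaperones were all low, with Psmd5 at 16.4 ± 1.14 TPM and Psmd9 at 12 ± 2.26 TPM, as were the activators Psme3 (PA28gamma, a nuclear activator) at 21.1 ± 1.64 TPM and Psme4 (PA200) at 12.3 ± 1.06 TPM. Pomp, which helps the 20S core to mature, reached 64.9 ± 7.76 TPM. For some genes, transcripts annotated as non-coding took a large share of the reads: 40.1% to 51.3% for Psma3 in Ctr and 48.9% to 54.8% in IFNg, 22.0% to 28.3% for Psmb4 in Ctr and 23.8% to 36.0% for Psmd13 in Ctr. Counted over protein-coding transcripts alone, Psma3 fell from 49.9 to 18.4 TPM and became the lowest subunit of the 20S core. Psmb4 fell from 106 to 59.2 TPM on the same count, and from rank 3 to rank 15 among the members.

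With IFN-gamma, transcripts of most constitutive proteasome genes rose by a modest amount. Of the 37 members, 26 were called higher in IFNg than in Ctr and 0 lower (edgeR quasi-likelihood test with replicate number as a block, adjusted p under 0.05), where 15.9% of all genes tested were called higher and 15.3% lower. The median change of the members was 0.24 on the log2 scale, against -0.012 for all genes, and their changes ran from -0.05 to 0.72 with standard errors (SE) of 0.04 to 0.08. In the 20S core 12 of 14 genes were called higher with a median of 0.44, among the 19S ATPases 6 of 6 with a median of 0.26, among the other 19S genes 7 of 14 with a median of 0.22, and in the group of activators and assembly factor only Pomp, 1 of 3. In a simpler count, 30 members were higher in IFNg in all 4 pairs, where 22.1% of all genes were, and 17 members had every IFNg library above every Ctr library, where 8.94% of all genes did. Without the replicate block 15 members were called, where 6.08% of all genes were: Psma1 to Psma5, Psma7, Psmb1, Psmb2, Psmb4, Psmc2, Psmc6, Psmd1, Psmd7, Psmd12 and Pomp.

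**Figure D2:**
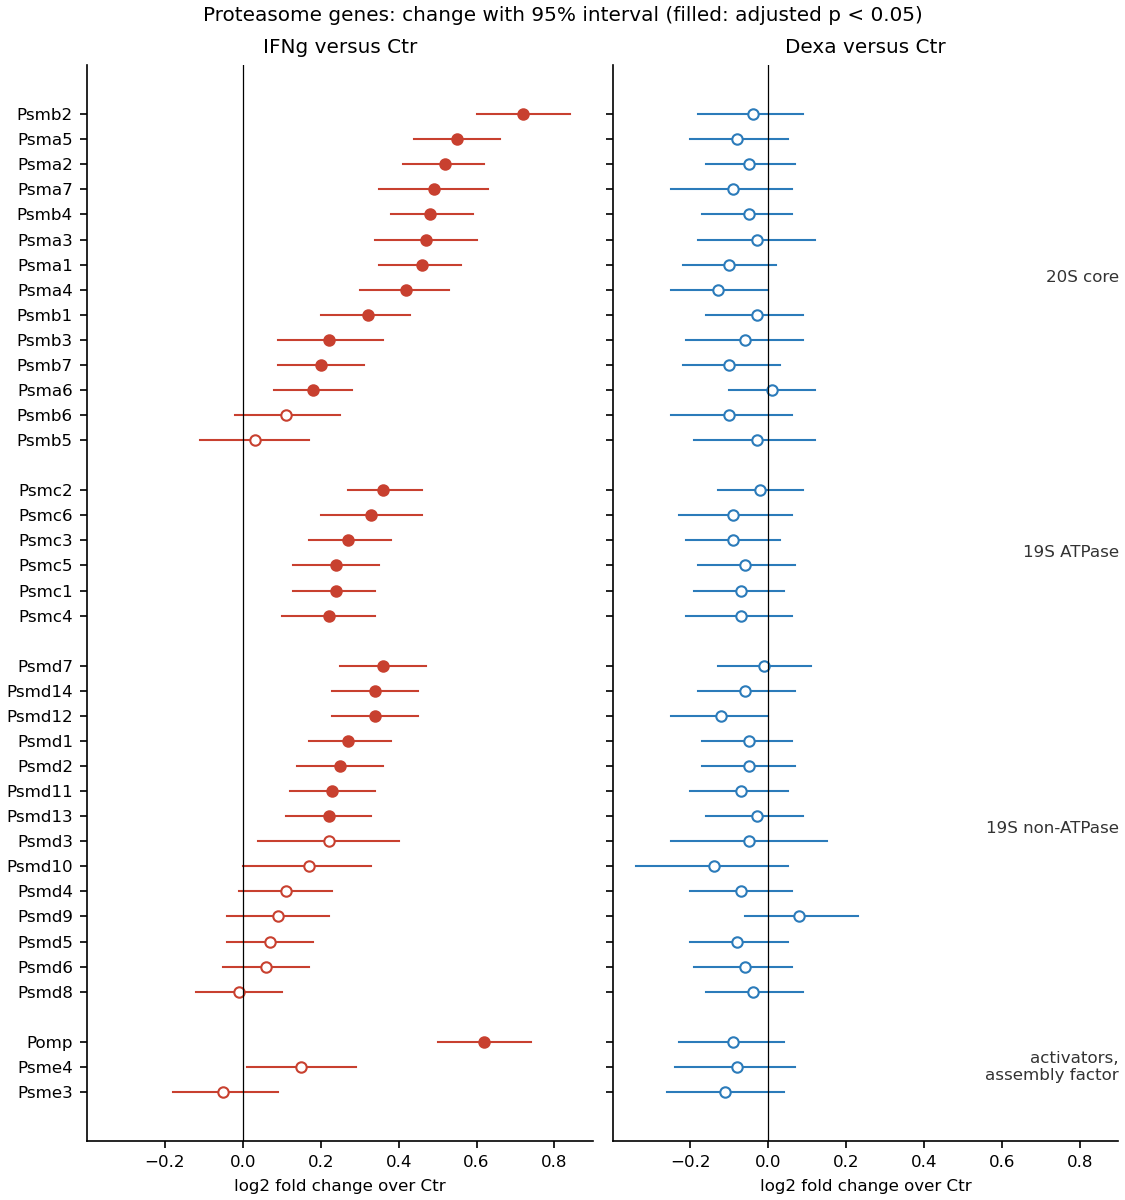
Log2 fold change of each of the 37 genes over Ctr in IFNg (left) and Dexa (right), with 95% intervals, filled where the adjusted p was under 0.05. With IFNg 26 genes are filled, all above 0, and Psmb5 sits near 0, whereas with Dexa no gene is filled and 35 of 37 lie below 0.

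The largest change in the 20S core was that of Psmb2, a beta ring subunit with no active site. It stood at 89.8, 80.5, 76.4 and 84.6 CPM in Ctr replicates 1 to 4 and at 147, 136, 137 and 125 CPM in the IFNg replicates, so that the groups did not overlap. Its log2 change was 0.72 (SE 0.06, 95% interval 0.60 to 0.84, adjusted p = 1.6e-06), or 64.5% more transcript. Psma5, of the alpha ring, went from 99.4, 89.0, 81.6 and 81.6 CPM to 153, 132, 113 and 119 CPM, again without overlap, with a log2 change of 0.55 (SE 0.05, adjusted p = 6.91e-06). All 7 alpha ring genes were called higher, with a median of 0.47. Psma6 changed by 0.18 (SE 0.05, adjusted p = 0.0103) with overlapping groups, and the other 6 by 0.42 to 0.55. Among the 4 beta subunits without an active site, all called higher, Psmb4 (0.48) and Psmb1 (0.32) followed Psmb2, and Psmb3 changed by 0.22 (SE 0.06, adjusted p = 0.0169). Leaving out 1 library at a time ended 4 of the 26 calls, with changes that stayed above 0. Psma6 lost its call without Ctr replicate 2 or 4 (change 0.16 in both, adjusted p up to 0.0684) and Psmb3 without Ctr replicate 2 or 3 or IFNg replicate 3 (0.17 to 0.20, up to 0.11). The catalytic Psmb7 lost it without Ctr replicate 2 (0.17, adjusted p = 0.0726) and the ATPase Psmc4 without Ctr or IFNg replicate 3 (0.18 in both, up to 0.0553).

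Of the core genes, the catalytic subunits Psmb5 and Psmb6 had the smallest fitted changes. Psmb5 measured 109, 103, 78.9 and 89.5 CPM in Ctr and 111, 94.4, 94.3 and 86.8 CPM in IFNg, higher in 2 of 4 pairs. Its change of 0.03 (SE 0.06, 95% interval -0.11 to 0.17, adjusted p = 0.759) did not pass the test. This interval overlapped those of Psmb6, Psma6 (0.08 to 0.28), Psmb7 (0.09 to 0.31) and Psmb3 (0.09 to 0.36). Changes of single genes were not tested against each other. Psmb6 stood at 180, 168, 143 and 156 CPM in Ctr and at 205, 168, 166 and 160 CPM in IFNg, with a change of 0.11 (SE 0.06, 95% interval -0.02 to 0.25, adjusted p = 0.2). Psmb7 was the only catalytic subunit called higher, from 161, 146, 132 and 132 CPM to 183, 171, 152 and 148 CPM, with groups that overlapped but a rise in 4 of 4 pairs of 0.17 to 0.23 and a fitted change of 0.20 (SE 0.05, adjusted p = 0.00959). The median change of the 3 catalytic genes was 0.11, against 0.47 for the 11 other core genes, and this difference was not tested.

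All 6 ATPases of the 19S cap were called higher, with changes of 0.22 to 0.36, and 2 of them were also called without the block. Psmc2 rose from 91.3, 88.6, 77.7 and 86.0 CPM to 119, 116, 100 and 108 CPM (log2 change 0.36, SE 0.04, adjusted p = 6.66e-05). Psmc6 rose from 117, 105, 107 and 103 CPM to 133, 151, 129 and 129 CPM (0.33, SE 0.06, adjusted p = 0.00135). In both, the lowest IFNg library lay above the highest Ctr library. The other 4 ATPases changed by 0.22 (Psmc4) to 0.27 (Psmc3), with overlapping groups.

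The 19S genes that are no ATPases changed by -0.01 to 0.36. Both base scaffolds were called higher, Psmd1 by 0.27 and Psmd2 by 0.25 on the log2 scale. Of the 8 lid subunits among the members 5 were called. They were led by Psmd7, the partner of the deubiquitinase, which went from 92.6, 80.6, 73.9 and 78.4 CPM to 121, 101, 95.4 and 100 CPM without overlap (0.36, SE 0.05, adjusted p = 0.000209). Psmd12 went from 74.7, 68.2, 67.4 and 66.4 CPM to 95.4, 91.6, 79.6 and 84.4 CPM (0.34, SE 0.05, adjusted p = 0.000275), and the deubiquitinase Psmd14 changed by 0.34, Psmd11 by 0.23 and Psmd13 by 0.22. The lid subunits Psmd6 (0.06), Psmd8 (-0.01) and Psmd3 (0.22, adjusted p = 0.0589) did not pass the test. Psmd3 shared the widest SE of the members, 0.08, with Psmd10 and was lower in IFNg in 1 of 4 pairs. The ubiquitin receptor Psmd4 (0.11) and the assembly chaperones Psmd5 (0.07), Psmd9 (0.09) and Psmd10 (0.17) did not pass either.

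Pomp, the maturation factor of the 20S core, showed the second largest change of all members. It measured 80.4, 77.5, 79.0 and 77.3 CPM in Ctr, the narrowest spread among the members at a coefficient of variation of 1.84%, and 134, 118, 111 and 122 CPM in IFNg (log2 change 0.62, SE 0.06, adjusted p = 5.25e-06). The activators had smaller fitted changes. Psme3 measured 76.7, 72.4, 79.5 and 82.2 CPM in Ctr and 78.6, 76.7, 71.7 and 73.4 CPM in IFNg (-0.05, SE 0.06, adjusted p = 0.615). Psme4 measured 110, 108, 117 and 108 CPM in Ctr and 117, 137, 117 and 121 CPM in IFNg (0.15, SE 0.06, adjusted p = 0.0894). Neither passed the test.

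**Figure D3:**
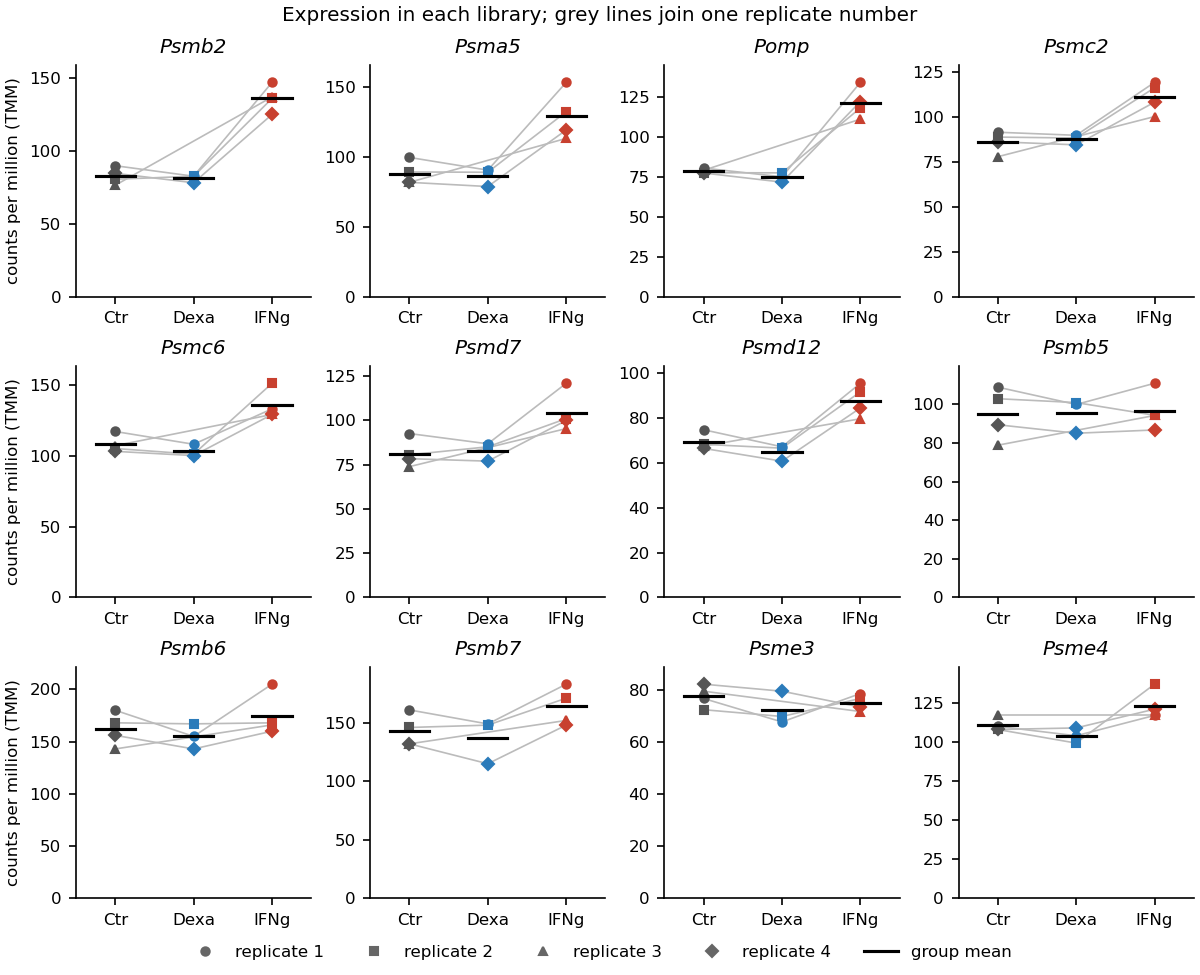
CPM of 12 genes in each complete library of Ctr, Dexa and IFNg (points, shaped by replicate number, with grey lines joining a number and black bars for group means). Psmb2, Psma5 and Pomp separate IFNg from Ctr completely, while the points of Psmb5, Psmb6 and Psme3 overlap.

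The inducible counterparts of the catalytic genes changed on another scale. TPM of each pair were compared within a library, because the median of all genes was itself 0.0927 higher in IFNg than in Ctr on the scale of log2(TPM + 1). Psmb8 was at 0.00604 to 0.0128 times the level of Psmb5 in Ctr and at 3.85 to 5.43 times in IFNg. Psmb9 was at 0.00166 to 0.00239 times the level of Psmb6 in Ctr and at 0.582 to 0.68 times in IFNg, so it stayed below Psmb6 in all 4 IFNg libraries. Psmb10, which Ctr cells already expressed at 0.151 to 0.201 times the level of Psmb7, reached 2.72 to 3.16 times. Thus the inducible gene made up 82.2% ± 2.14, 38.3% ± 1.63 and 74.9% ± 1.28 of its pair's TPM in IFNg (SD, n = 4).

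**Figure D4:**
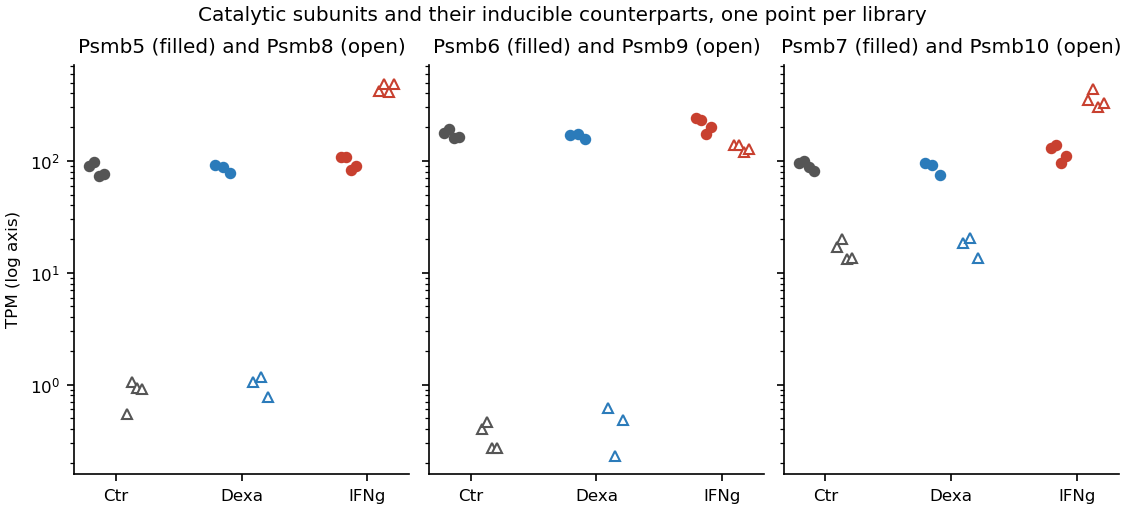
TPM (log axis) of Psmb5, Psmb6 and Psmb7 (filled) and of Psmb8, Psmb9 and Psmb10 (open) in each complete library. The filled points differ far less between groups than the open triangles. They span 73.8 to 109 TPM for Psmb5, 158 to 241 TPM for Psmb6 and 74.0 to 140 TPM for Psmb7. The open triangles rise above them in IFNg except for Psmb9.

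Ratios of the constitutive catalytic transcripts to the other core transcripts were lower in IFNg. All 11 other core genes were themselves called higher, so a gene with a smaller change falls in such a ratio. Relative to the geometric mean of the 11 other 20S genes in the same library, Psmb5 stood at 1.13 to 1.41 in Ctr and 0.909 to 1.01 in IFNg, Psmb6 at 2.48 to 2.77 and 1.96 to 2.24, and Psmb7 at 1.35 to 1.45 and 1.14 to 1.20. In each case the Ctr and IFNg ranges did not overlap, and in Dexa the ranges were 1.29 to 1.37, 2.55 to 2.65 and 1.24 to 1.45. When constitutive and inducible TPM were added, the beta5 pair went from 1.31 ± 0.118 to 5.48 ± 0.602 times the other core genes, the beta2 pair from 1.64 ± 0.0842 to 4.68 ± 0.182 and the beta1 pair from 2.67 ± 0.130 to 3.42 ± 0.192 (SD, n = 4). Of the 11 other genes, Psma6 (0.18) and Psmb3 (0.22) had log2 changes with IFNg close to that of Psmb7 (0.20). These ratios are descriptions of genes chosen with earlier results known and were not tested.

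Dexamethasone changed no member past the test. Of the 37 genes 0 were called in either direction, and 0 had an unadjusted p under 0.05, where 1.42% of all genes were called higher and 0.279% lower. DESeq2 with and without the block, edgeR without it and limma on TPM gave the same counts of 0. The changes ran from -0.14 for Psmd10 to 0.08 for Psmd9, 35 of 37 were below 0, and their median was -0.06 against -0.002 for all genes. The count above 0 rose from 2 to 10 without Dexa replicate 1 and to 9 without the block. The 95% intervals of all members lay between -0.34 and 0.23 on the log2 scale. In all 3 pairs 19 members were lower in Dexa, where 22.8% of all genes were.

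The members with the smallest p were Psmd12, Psma4, Psma1, Psmb7 and Psmd10. Psmd12 stood at 67.1, 66.5 and 60.7 CPM in Dexa replicates 1, 2 and 4, each below its paired Ctr library (log2 change -0.12, SE 0.06, adjusted p = 0.454). Psma4 stood at 92.2, 95.1 and 92.2 CPM in Dexa against 103, 96.1, 100 and 101 CPM in Ctr (-0.13, SE 0.06, adjusted p = 0.474). It was the only member whose Dexa libraries all lay below all Ctr libraries, where 304 of all 17919 genes tested did so. Psma1 stood at 78.6, 72.2 and 68.5 CPM in Dexa (-0.10, adjusted p = 0.558), Psmb7 at 149, 148 and 115 CPM (-0.10, adjusted p = 0.599) and Psmd10 at 12.5, 12.1 and 10.5 CPM (-0.14, adjusted p = 0.614). The pairs were uneven. The median difference over the members was -0.13 in pair 1, 0.00 in pair 2 and -0.08 in pair 4. Over the 17 members listed whole in the incomplete Dexa library, adding it left the count of calls at 0 and the median at -0.07, with all 17 below 0.

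**Figure D5:**
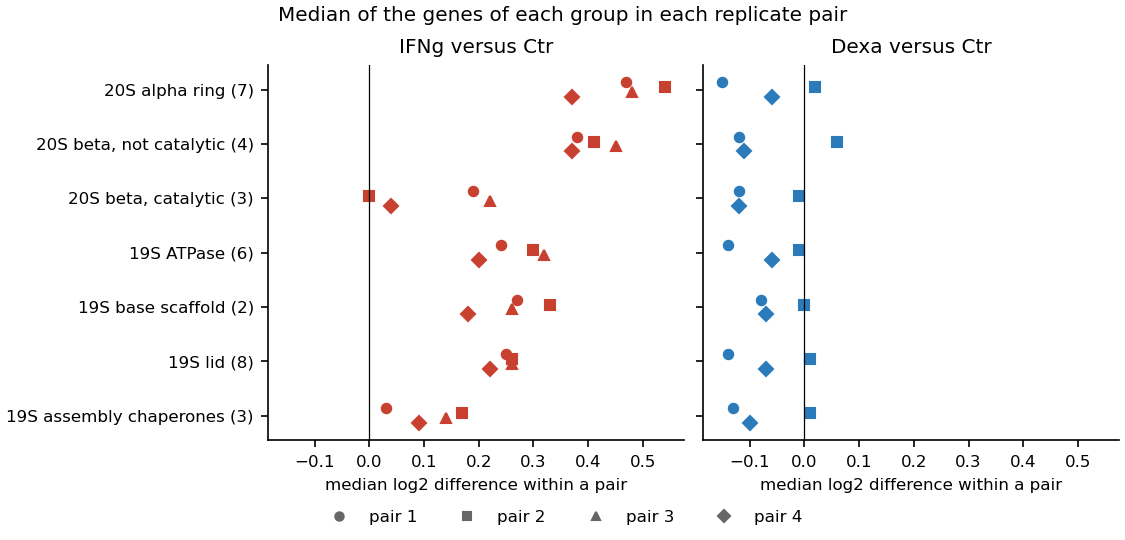
Median log2 difference over the genes of each group within each replicate pair, for IFNg against Ctr (left, 4 pairs) and Dexa against Ctr (right, 3 pairs), with the number of genes in brackets. The alpha ring lies at 0.37 to 0.54 with IFNg, the catalytic subunits at 0.00 to 0.22, and with Dexa pair 2 lies near 0 in every group while pair 1 lies lowest in all groups but the catalytic one, where it ties with pair 4.

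Set directly against dexamethasone, IFNg gave the larger count. In IFNg versus Dexa 31 of 37 members were called higher and 0 lower, where 17.2% of all genes were higher and 16.8% lower, with a median of 0.31. Without the block 15 were called, where 5.66% of all genes were. The 26 members called against Ctr were all called here too, but both comparisons use the same IFNg libraries, and Psmb6, Psmd3, Psmd4, Psmd10 and Psme4 joined them. Psmb2 changed by 0.76 (SE 0.06), Pomp by 0.72 (SE 0.06) and Psma5 by 0.63 (SE 0.06). Psmb6 differed by 0.21 (SE 0.07, adjusted p = 0.0387), a call lost in 9 of the 11 fits that each left out 1 library, and Psmd4 lost its call in 10 of them, Psmd3 in 9, Psma6 in 6, Psmd10 in 5, Psme4 in 3, and Psmd13 and Psmb3 in 1. Psmb5, with 0.06 (95% interval -0.09 to 0.22, adjusted p = 0.539), and Psmd5, Psmd6, Psmd8, Psmd9 and Psme3 were not called. Without Dexa replicate 1 the count was 23.

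Replicates differed in the summed level of the members. The members together took 4515, 4219, 3840 and 3962 CPM in Ctr replicates 1 to 4 and 5518, 5261, 4722 and 4612 CPM in the IFNg replicates. In 34 of the 37 genes the highest Ctr library was replicate 1, and in 25 of the 37 the highest IFNg library was. In Dexa replicates 1, 2 and 4 the sums were 4145, 4234 and 3752 CPM, and replicate 1 was highest for 15 members. The share of all genes with this order was not counted, so it cannot be called particular to the members. Ctr replicate 1 also stood apart in other genes. Cell cycle genes summed to 4020 CPM there against 1478 to 3127 CPM in the other Ctr libraries, and OPC markers to 5782 against 9796 to 13670 CPM. Psmb5 had the widest spread among Ctr libraries, with a coefficient of variation of 14.2% against a median of 8.28% over the members. The median member change with IFNg was nonetheless close among pairs, at 0.24, 0.28, 0.28 and 0.20 for pairs 1 to 4.

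Other gene groups moved with the treatment, where 15.9% of all genes tested were called higher in IFNg than in Ctr and 15.3% lower. Of 12 cell cycle genes 6 were called higher in IFNg than in Ctr and 0 lower, with a median of 0.53, among them Mcm6 (0.72), Top2a (0.90) and Mcm5 (0.75). Their summed level was 4020, 3127, 1848 and 1478 CPM in Ctr replicates 1 to 4 and 4247, 4164, 3127 and 2962 CPM in IFNg, which gives log2 ratios of 0.08, 0.41, 0.76 and 1.00 in pairs 1 to 4. The median member change in pairs 1 to 4 was 0.24, 0.28, 0.28 and 0.20. Of 10 OPC markers 7 were called lower and 0 higher, with a median of -0.58, led by Lhfpl3, C1ql1 and Gpr17. Of 8 astrocyte markers 3 were called higher, Gfap (3.99), Aldoc (0.88) and Aldh1l1 (0.76). As many as 3 were called lower, S100b (-1.53), Aqp4 (-0.84) and Gja1 (-0.36). Gfap was low in Ctr, at 0.124 to 1.21 CPM. Without the block 0 cell cycle genes and 0 OPC markers were called, with 1 astrocyte marker called higher, where 6.08% of all genes were. Of the myelinating oligodendrocyte markers 1 was called higher and 1 lower of 7 tested, of neuron markers 2 and 2 of 6, of vascular markers 0 and 2 of 7 and of microglia markers 0 and 0 of 2. The part of these shifts in the member changes was not tested.

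Genes that belong to, build or serve the proteasome but are no members were followed as lists, where 15.9% of all genes were called higher with IFNg. All 5 genes of the immunoproteasome and the PA28 alpha and beta activator were called higher with IFNg, Psmb8 by 8.75, Psmb9 by 8.07, Psmb10 by 4.54, Psme1 by 3.37 and Psme2 by 3.25 on the log2 scale. Of the 4 chaperones of 20S assembly only Psmg4 was called (0.90, SE 0.11, adjusted p = 8.2e-05), and Psmg1, Psmg2 and Psmg3 lay between -0.15 and 0.02. Of 13 tested factors that bind the proteasome 6 were called higher and 0 lower, led by Ecpas (0.26), Txnl1 (0.27) and the deubiquitinases Uchl5 (0.35) and Usp14 (0.20), with a median of 0.14. Only 1 of these was called without the block, where 6.08% of all genes were called higher. The testis- and thymus-restricted core subunits Psma8 and Psmb11 did not pass the filter on low counts.

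The transcription factor Nfe2l1, or NRF1, is known for raising proteasome genes when proteasome activity falls. In its list of 10 genes 3 were called higher and 2 lower, with a median of -0.01. Of all genes tested 15.9% were called higher with IFNg than in Ctr and 15.3% lower. Nfe2l1 itself changed by 0.13 (adjusted p = 0.176) and Nfe2l2, a related factor of the oxidative stress response, by 1.05 (SE 0.07, adjusted p = 2.61e-07). Their small partner Maff changed by 2.39 (SE 0.18, adjusted p = 1.71e-06). Sel1l and Ngly1, which act on Nfe2l1 in the endoplasmic reticulum and cytosol, were called lower by -0.40 and -0.19. Vcp was the third gene of the list called higher (0.16, SE 0.06, adjusted p = 0.0448). Of 6 ubiquitin and E1 genes 2 were called higher, Ubb (0.34) and Uba1 (0.17). Of other protein complexes, 1 of 9 subunits of the COP9 signalosome, Cops4 (0.25), and 1 of 8 subunits of the CCT chaperonin, Tcp1 (0.18), were called higher, where 15.9% of all genes were, with medians of 0.04 and 0.07. In IFNg versus Dexa 3 of 9 and 5 of 8 were called higher, where 17.2% of all genes were, with medians of 0.04 and 0.19. Without the block the counts against Ctr were 1 higher and 0 lower for the list of Nfe2l1, 0 for the ubiquitin and E1 genes, 1 for the COP9 signalosome and 0 for CCT. That fit called 6.08% of all genes higher. In Dexa versus Ctr no list held more than 1 called gene.

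The promoters of the members were read for short motifs, because many members moved together. RefSeq windows of 300 bases (250 before and 50 after the start, GRCm38.p6) gave 33 windows for 31 members, with none for Psmd3, Psmb7, Psmb2, Psmd7, Psmb1 and Psmc3. The GC box core GGGCGG, searched on both strands, was in 20 of 33 windows (60.6%), against 35.7% of all 32851 windows, and the members' windows had a median GC content of 59.0% against 52.7%. The box CCAAT was in 12 (36.4%), against 37.4%. The core of the interferon-stimulated response element, GAAA repeated with any 2 bases between the copies, was in 3 windows (9.09%, against 3.44%), those of Psmb3, Psmd4 and Psmd9. The core of the gamma-activated sequence, TTCNNNGAA, was in 1 (3.03%, against 8.3%), that of Psmd2. The core of the antioxidant response element bound by NRF1 and NRF2, TGACNNNGC, was in 6 (18.2%, against 12.4%): Psmb5, Psmb6, Psmc6, Psmd12, Psmd9 and Psme4. Its stricter form TGACTCAGC, each match of which is also a match to TGACNNNGC, was in 0, against 0.454%.

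The 250 bases before the start are shown for Pomp (chr5:147860378-147860627, plus strand), a called gene without any of these 3 cores, for Psmb3 (chr11:97703184-97703433, plus strand), called and with the first, for the catalytic genes Psmb5 (chr14:54617996-54618245, minus strand) and Psmb6 (chr11:70525107-70525356, plus strand), not called and with the third, and for Psmb8 (chr17:34197945-34198194, plus strand), the counterpart of Psmb5, with the second. Capitals mark the matches to the GAAA repeat, TTCNNNGAA or TGACNNNGC on either strand.
Pomp: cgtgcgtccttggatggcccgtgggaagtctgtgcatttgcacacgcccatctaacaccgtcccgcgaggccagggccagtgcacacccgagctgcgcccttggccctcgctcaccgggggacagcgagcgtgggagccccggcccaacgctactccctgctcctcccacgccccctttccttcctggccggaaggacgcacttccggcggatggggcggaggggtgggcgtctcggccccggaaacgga
Psmb3: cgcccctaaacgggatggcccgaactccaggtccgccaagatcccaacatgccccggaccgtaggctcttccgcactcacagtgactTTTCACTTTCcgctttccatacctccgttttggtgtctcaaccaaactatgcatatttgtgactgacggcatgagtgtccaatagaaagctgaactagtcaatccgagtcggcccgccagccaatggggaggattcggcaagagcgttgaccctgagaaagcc
Psmb5: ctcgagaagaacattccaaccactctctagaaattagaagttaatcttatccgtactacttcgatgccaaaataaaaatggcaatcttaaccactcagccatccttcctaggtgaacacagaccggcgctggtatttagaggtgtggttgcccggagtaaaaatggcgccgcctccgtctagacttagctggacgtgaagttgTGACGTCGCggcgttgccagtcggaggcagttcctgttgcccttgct
Psmb6: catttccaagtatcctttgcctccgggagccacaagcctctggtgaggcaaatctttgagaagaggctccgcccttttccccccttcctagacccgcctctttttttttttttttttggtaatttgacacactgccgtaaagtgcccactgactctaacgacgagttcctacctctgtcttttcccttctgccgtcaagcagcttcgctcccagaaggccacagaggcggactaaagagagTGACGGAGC
Psmb8: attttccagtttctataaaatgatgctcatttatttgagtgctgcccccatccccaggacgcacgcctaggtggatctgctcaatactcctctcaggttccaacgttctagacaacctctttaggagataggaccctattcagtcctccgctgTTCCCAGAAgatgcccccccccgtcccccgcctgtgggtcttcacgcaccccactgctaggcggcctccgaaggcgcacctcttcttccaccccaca
The match begins 163 bases before the start in Psmb3, 47 in Psmb5, 9 in Psmb6 and 97 in Psmb8. Of the 23 windows of called members 1 held the GAAA repeat, 1 TTCNNNGAA and 2 TGACNNNGC, and of the 10 windows of members not called 2, 0 and 4 did. Of the 6 windows of immunoproteasome and PA28 alpha and beta genes 1 held the GAAA repeat (Psme1), 1 TTCNNNGAA (Psmb8) and 0 TGACNNNGC. These matches are letters in a window and not binding sites.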

How the data were processed

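RNA was sequenced as stranded total RNA libraries. Per the labels, the submitters' processing notes name STAR, Salmon 0.8.2 and DESeq2 with mm10 and GRCm38, and the methods state that Salmon gave the values per transcript. The deposited tables hold estimated counts and TPM for 141862 transcripts, made by the authors with no filter or scaling stated. A set of deposited tables with the authors' own comparisons was not used. Counts were summed per gene, rounded and tested with edgeR 4.0.16 (R 4.3.3, quasi-likelihood, TMM scaling, Benjamini-Hochberg adjustment, threshold 0.05) over the 17919 genes that reached 10 counts in 4 or more libraries, with all 3 groups and the replicate number in 1 fit. This test was taken in place of DESeq2, the study's tool, whose formula is not given in the sources used here, and DESeq2 1.42.0, limma 3.58.1 and other settings were alternatives. TPM served for levels between genes, and the log2 scale with a pseudocount of 1 or 0.1 for limma.

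The labels give replicates of different litters, and same-numbered libraries deviated together (correlations of 0.414 to 0.745 in every pair), so the numbers were taken as pairs. Among different numbers the highest correlations were those of Ctr replicate 3 with Dexa replicate 4 (0.526) and with IFNg replicate 4 (0.39). Replicates 3 and 4 were thus set apart less clearly. No 2 libraries agreed within sampling noise. Depth, and hence precision, differed between libraries, and SE cover the spread between these cultures. Members, lists and promoter motifs were chosen with earlier results of these data known. Values in every library were given for the catalytic subunits, Pomp, Psme3, Psme4, the 2 largest changes of each part with IFNg and the 5 smallest p with dexamethasone. Of companion lists, genes with the smallest p were named, besides Nfe2l1, Adrm1 and Sem1, named for their roles. Paaf1, a factor that binds the proteasome, was not analysed here.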

Additional observations from a re-analysis of the deposited data

How the results depend on the processing

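Counts of calls held within 1.5 times except without the replicate block, where IFNg versus Ctr gave 15 (edgeR) or 17 (DESeq2) of 37 and IFNg versus Dexa 15 or 18. Other alternatives gave 23 to 30 and 23 to 32, 11 and 15 of 17 members with the incomplete Dexa library added, and no lower calls. In Dexa versus Ctr all alternatives gave 0. Leaving out 1 library gave 23 to 27 calls against Ctr and 23 to 28 against Dexa.

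Median changes on the log2 scale moved most with limma on TPM with a pseudocount of 1 or 0.1, a scale whose centre shifts. With IFNg versus Ctr they became 0.60 and 0.60 (20S core), 0.41 and 0.41 (19S ATPases), 0.37 and 0.38 (other 19S genes) and 0.31 and 0.33 (activators and Pomp), and with IFNg versus Dexa 0.72 and 0.73, 0.52 and 0.52, and 0.44 and 0.46. Over protein-coding transcripts only, an alternative chosen after seeing the data, the 20S median was 0.37 against Ctr and 0.45 against Dexa, and the highest member level became 22.1 times the lowest. With scaling by total count only, the other 19S genes gave 0.18 against Ctr. The activators and Pomp in Dexa versus Ctr gave -0.12 with no filter and -0.06 with limma at a pseudocount of 1. Leaving out 1 library gave 0.17 to 0.22 for the other 19S genes against Ctr, 0.44 to 0.55 for the 20S core against Dexa and -0.13 to -0.06 for activators and Pomp in Dexa. It gave 0.08 (without IFNg replicate 2) to 0.19 for activators and Pomp with IFNg versus Ctr, and in Dexa versus Ctr -0.09 to -0.01 (without Dexa replicate 1) for the 20S core, -0.10 to -0.04 for the 19S ATPases and -0.09 to -0.03 for the other 19S genes. The causes were not tested.

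Among members not called, the direction of Psmb5 turned with total count scaling (-0.01) and without replicate 3 of Ctr or IFNg (leaving out 1 library gave -0.06 to 0.08), that of Psmd8 with limma (0.16 in both) and without Ctr replicate 1 (-0.05 to 0.00), and that of Psme3 with limma (0.15 and 0.16). In IFNg versus Dexa, that of Psmd9 (0.01) turned with total count scaling (-0.03), without the block (-0.04 with both tools), with the libraries of these groups alone (-0.02) and over protein-coding transcripts (-0.01), and leaving out 1 library gave -0.02 to 0.03. That of Psmd8 turned with total count scaling (-0.01) and gave -0.03 to 0.08 leaving out 1 library, and that of Psme3 gave 0.00 to 0.12, turning without Dexa replicate 1. In IFNg versus Ctr 831 changes of single members were recomputed, of which 30 lost a call, 11 gained 1 and 8 turned. In IFNg versus Dexa 88 of 831 lost a call, 3 gained 1 and 14 turned. The 133 recomputed for the members named in Dexa versus Ctr kept direction and stayed without a call. The 19209063 reads of the shallowest library and the 3 Dexa pairs limit what could be detected.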
